A study of Mus musculus with 18 samples.

Results

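The 39 genes described here drive or mark cell division, and they were chosen as a list of symbols covering the cell cycle from the commitment to DNA synthesis through the separation of chromosomes. All 39 were found among the 21899 gene IDs of the deposited tables, and all 39 passed the filter on low counts in every comparison. RNA was sequenced from inguinal white adipose tissue, a fat depot under the skin of the groin, of male C57BL/6J mice. Tumour-bearing mice carried LLC cells (Lewis lung carcinoma, a murine lung cancer line) under the skin, and control mice had received phosphate-buffered saline (PBS) instead. The 18 libraries came from 5 LLC and 4 PBS samples at day 21 after injection, and from another 5 LLC and 4 PBS samples at day 7. The labels call day 21 the cachexia stage, a tumour-driven loss of fat and muscle, and day 7 the stage before it. No genetic alteration of the mice is named, and the sources used here do not give the age of the mice. Nothing in the labels says that the numbered libraries of a group came from separate mice, so a p-value here reflects spread among libraries that may be partly technical.

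A cell that commits to division first raises E2F1 activity and cyclin E, loads the MCM helicase onto replication origins with the licensing factors CDC6 and CDT1, and builds deoxynucleotides. Cyclin A2, cyclin B and CDK1 then carry it into mitosis, where Aurora kinases, the spindle motors and the checkpoint proteins BUB1 and BUBR1 act before the anaphase-promoting complex ends the division. Mature fat cells do not divide, and in white fat the cycling cells are known mainly as progenitors, macrophages and other stromal cells. In whole tissue, fewer cells of a type and less RNA per cell cannot be told apart.

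The list holds 16 genes of the G1/S step and of DNA replication, and 23 genes of mitosis counted together with Mki67, the gene of the Ki-67 proliferation antigen. The replication genes averaged 1.76 to 63.5 TPM (a read share corrected for transcript length) over the 18 libraries, with a median of 6.59 TPM. The mitosis genes were lower, at 1.04 to 8.72 TPM with a median of 2.71 TPM. The highest level was that of Pcna, the sliding clamp of DNA polymerase, and the lowest that of Cenpe, a kinetochore motor. These means include LLC library 1 of day 21, which was far above the others for the mitosis genes. Bub1 had 12.7 TPM in it and at most 1.68 TPM in any other library. Ube2c had 56.8 TPM in it and at most 13 TPM elsewhere. The lowest gene and the range of the mitosis genes thus depend on that library. All values within a gene are given below as CPM (counts scaled to library size) after TMM scaling over the 18 libraries.

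The promoters of both sets are shown because 38 of the 39 genes had their highest value in the same library, by a larger ratio in the mitosis set. RefSeq windows from 250 bases before to 50 bases after the start (GRCm38.p6) were found for 31 of the 39 genes. The letters TTTGAA, the core of the cell cycle genes homology region (CHR) element bound by the DREAM and MuvB complexes, stood on either strand in the windows of 13 of 18 mitosis genes and 1 of 13 replication genes, against 17.9% of all 32851 windows. CCAAT, the letters bound by NF-Y, stood in 16 of 18 mitosis windows and 8 of 13 replication windows, against 37.4% of all. E2F letters, searched as TTTCCCGC, as TTTGGCGC, as TTTGCCGC and as TTTCGCGC, stood in 1 of 18 mitosis windows, that of Cdk1, and in 6 of 13 replication windows, against 2.26% of all. A CHR match together with at least 2 CCAAT matches was found in 9 of 18 mitosis windows, in 0 of 13 replication windows and in 2.09% of all windows. A match describes letters and does not show binding. The stretches below run 5′ to 3′ along the gene's strand from 170 bases before to 30 bases after the start. Capitals mark the CHR, CCAAT and E2F letters, as spelled above or as read from the other strand. Where 2 matches overlap, as E2F letters do with each other in Mcm6 and with CCAAT in Mcm7, the capitals run on.
Cdk1 (chr10:69352883-69353082, minus strand): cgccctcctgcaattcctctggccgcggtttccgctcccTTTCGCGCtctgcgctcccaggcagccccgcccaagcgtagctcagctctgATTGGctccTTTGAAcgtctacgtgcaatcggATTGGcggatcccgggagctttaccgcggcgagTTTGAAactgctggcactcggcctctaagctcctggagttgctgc
Ccnb2 (chr9:70421525-70421724, minus strand): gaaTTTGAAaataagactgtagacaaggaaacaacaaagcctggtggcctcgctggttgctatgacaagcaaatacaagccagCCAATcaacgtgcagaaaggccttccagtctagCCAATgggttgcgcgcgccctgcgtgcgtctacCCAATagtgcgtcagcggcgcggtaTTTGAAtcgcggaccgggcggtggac
Top2a (chr11:99024160-99024359, minus strand): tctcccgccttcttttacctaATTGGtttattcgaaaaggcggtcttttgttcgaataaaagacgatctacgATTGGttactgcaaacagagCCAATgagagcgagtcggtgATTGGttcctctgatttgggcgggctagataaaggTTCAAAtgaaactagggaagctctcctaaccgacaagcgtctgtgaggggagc
Mki67 (chr7:135716350-135716549, minus strand): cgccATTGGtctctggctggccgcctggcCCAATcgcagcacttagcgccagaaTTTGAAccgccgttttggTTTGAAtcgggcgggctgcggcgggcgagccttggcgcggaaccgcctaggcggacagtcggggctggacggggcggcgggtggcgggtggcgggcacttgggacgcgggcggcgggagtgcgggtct
Mcm6 (chr1:128359676-128359875, minus strand): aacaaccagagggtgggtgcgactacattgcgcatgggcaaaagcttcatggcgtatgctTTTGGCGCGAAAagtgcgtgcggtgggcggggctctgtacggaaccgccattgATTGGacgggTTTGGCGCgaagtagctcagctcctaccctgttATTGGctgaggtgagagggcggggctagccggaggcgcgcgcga
Mcm7 (chr5:138171854-138172053, minus strand): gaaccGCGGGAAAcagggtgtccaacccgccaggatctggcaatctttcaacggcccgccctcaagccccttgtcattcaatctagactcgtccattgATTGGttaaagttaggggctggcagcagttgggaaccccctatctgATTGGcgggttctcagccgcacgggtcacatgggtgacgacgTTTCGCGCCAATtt
In these stretches Ccnb2, which encodes cyclin B2, held 2 CHR and 3 CCAAT matches, and Top2a, which encodes topoisomerase II alpha, held 1 CHR and 4 CCAAT matches. Mcm6 and Mcm7, which encode subunits of the MCM helicase, held 0 CHR matches and 3 and 2 E2F matches.

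The libraries held 14566155 to 18969387 counts each and 15516 to 16232 detected genes. Adipocyte markers summed to 24600 to 66100 CPM over the libraries, the highest of the cell type lists in each library. LLC library 1 of day 21 stood apart in the genes described here, and the counts of members called by edgeR are given with and without it. Some single values, such as mean levels over the 18 libraries, are given only with it. LLC library 3 of day 21 stood apart in a B cell list, at 1670 CPM against at most 30.4 CPM in any other library. PBS library 4 of day 21 stood apart in macrophage and progenitor lists, at 2650 and 14200 CPM, against 329 to 497 and 2640 to 4040 CPM in the other PBS libraries of that day.

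LLC library 1 of day 21 had the highest value of all 18 libraries for 38 of the 39 genes, or 97.4%, whereas it was highest for 14.8% of all 13975 genes tested. The exception was Mcm7, with 36.8 CPM in that library and 47.6 CPM in LLC library 4 of day 21. The 39 genes together held 1259 CPM in library 1 and 213 to 319 CPM in the other LLC libraries of day 21. Relative to the median of those other 4 libraries, library 1 was higher by a median of 17.1-fold over the mitosis genes and 4.25-fold over the replication genes. The widest ratio was 49.1-fold for Cenpf, a kinetochore protein of dividing cells, and the narrowest 1.22-fold for Mcm7. Mitosis genes summed to 687, 58.3, 60.3, 16.9 and 26.5 CPM in LLC libraries 1 to 5 of day 21, against 40.7, 39.1, 53.6 and 70.2 CPM in the PBS libraries. Replication genes summed to 571, 202, 259, 228 and 186.5 CPM in the same LLC libraries, against 169.8, 166.1, 164.4 and 204.4 CPM in PBS. Without library 1, the replication sums were thus mostly above those of PBS, while the mitosis sums lay on both sides of them.

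**Figure D1:**
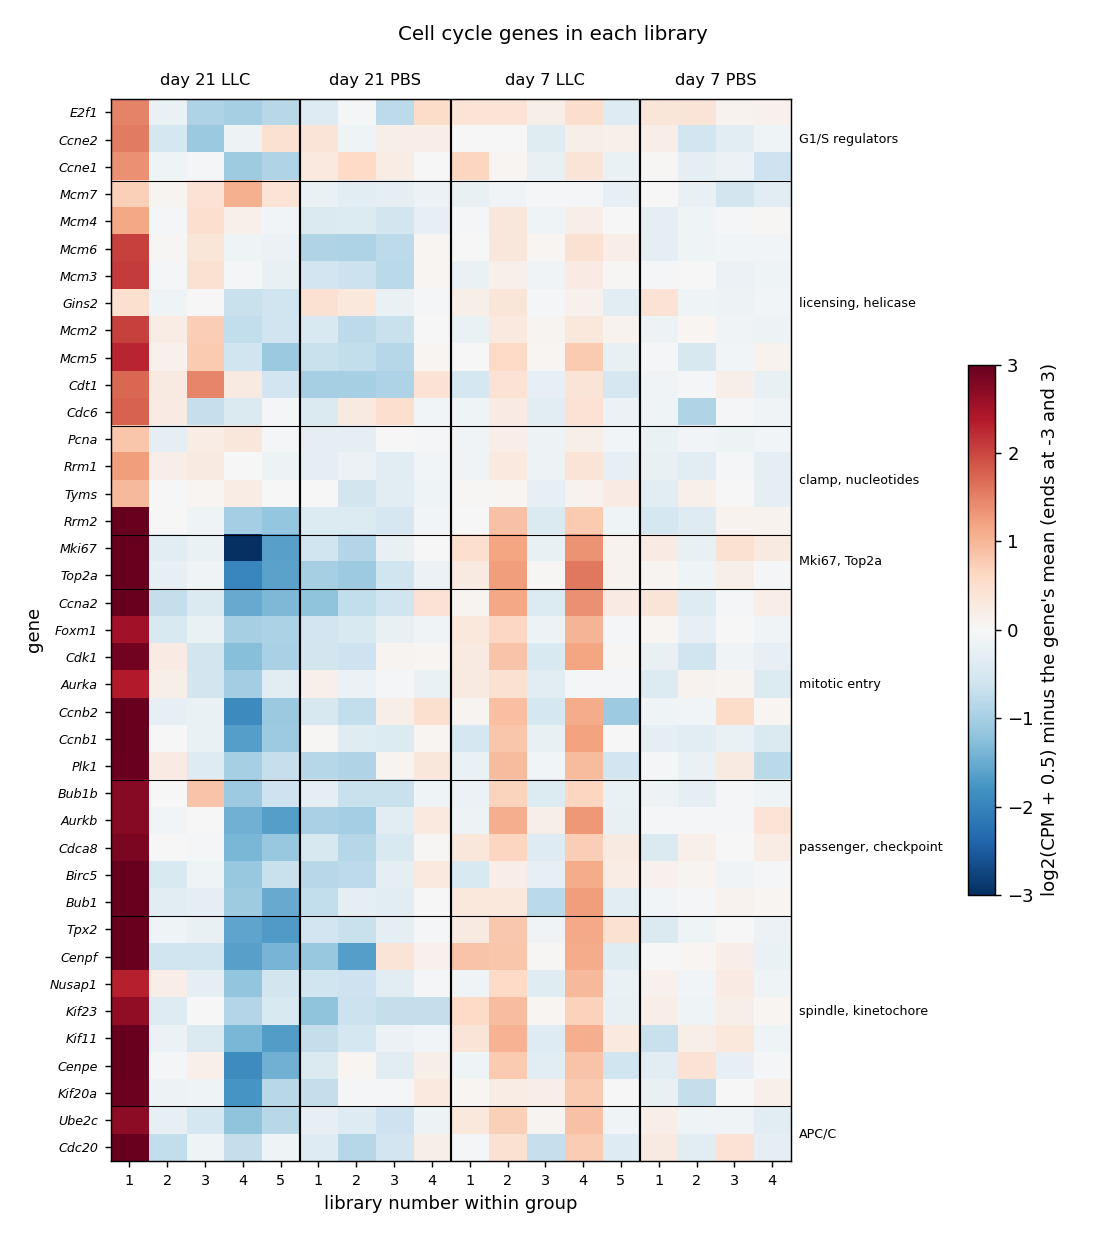
Level of each of the 39 genes (rows, ordered by role) in each of the 18 libraries (columns, by group), as log2(CPM + 0.5) minus the gene's mean over the libraries, with colours ending at -3 and 3. LLC library 1 of day 21 is highest for 38 genes, LLC libraries 4 and 5 of day 21 are lowest for many mitosis genes, and LLC libraries 2 and 4 of day 7 are high within their day.

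Other lists also stood out in library 1. An oncofetal list of 5 genes summed to 94.1 CPM in it, against 10.4 to 13.4 CPM in the other LLC libraries of day 21 and 8.08 to 12.3 CPM in PBS of day 21. Hmga2, a chromatin protein of embryonic tissue and many tumours, stood at 63.3 CPM in library 1 and at no more than 1.08 CPM in any other library. An epithelial list summed to 61.7 CPM in library 1, against 3.8 to 27.4 CPM in the other LLC libraries of day 21. LLC library 5 of day 7 had 32 CPM. Most of the sum in library 1 was Krt8, a keratin, at 51.6 CPM. Epcam, Krt18, Krt19 and Cdh1 had 0.344, 2.51, 2.46 and 1.97 CPM there, against 2.69, 3.8, 6.14 and 4.74 CPM in LLC library 2 of day 21. Krt5 and Elf3 were higher than in that library, at 0.983 and 0.786 CPM in library 1. Macrophage markers summed to 3600 CPM in library 1, against 1090 to 2080 CPM in the other LLC libraries of day 21. Of that list, Cd14 and Mertk lay within the range of the other LLC libraries, and the rest were the highest of LLC of day 21 in library 1. Progenitor and fibroblast markers summed to 12900 CPM in it, against 3090 to 5490 CPM. Most of that sum was collagen, with Col1a1 at 3120 and Col3a1 at 6850 CPM. Pdgfra, Pdgfrb, Ly6a, Col15a1 and Lum were also highest in library 1 among LLC of day 21. Dpp4 and Pi16 were the lowest of that group in library 1, at 53.2 and 201 CPM. Cd34, Smoc2 and Dcn lay within the range of the other LLC libraries. The adipocyte markers had their lowest sum in library 1, at 24600 CPM. Of that list, Lep was the highest of LLC of day 21 in library 1, at 382 CPM. Pparg and Lpl lay above LLC library 3, and the rest were the lowest of LLC of day 21 in library 1. The part of these cell types in the cell cycle values was not tested, nor was whether the library held tumour tissue beside fat, so a value that includes it may not be one of fat alone.

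**Figure D2:**
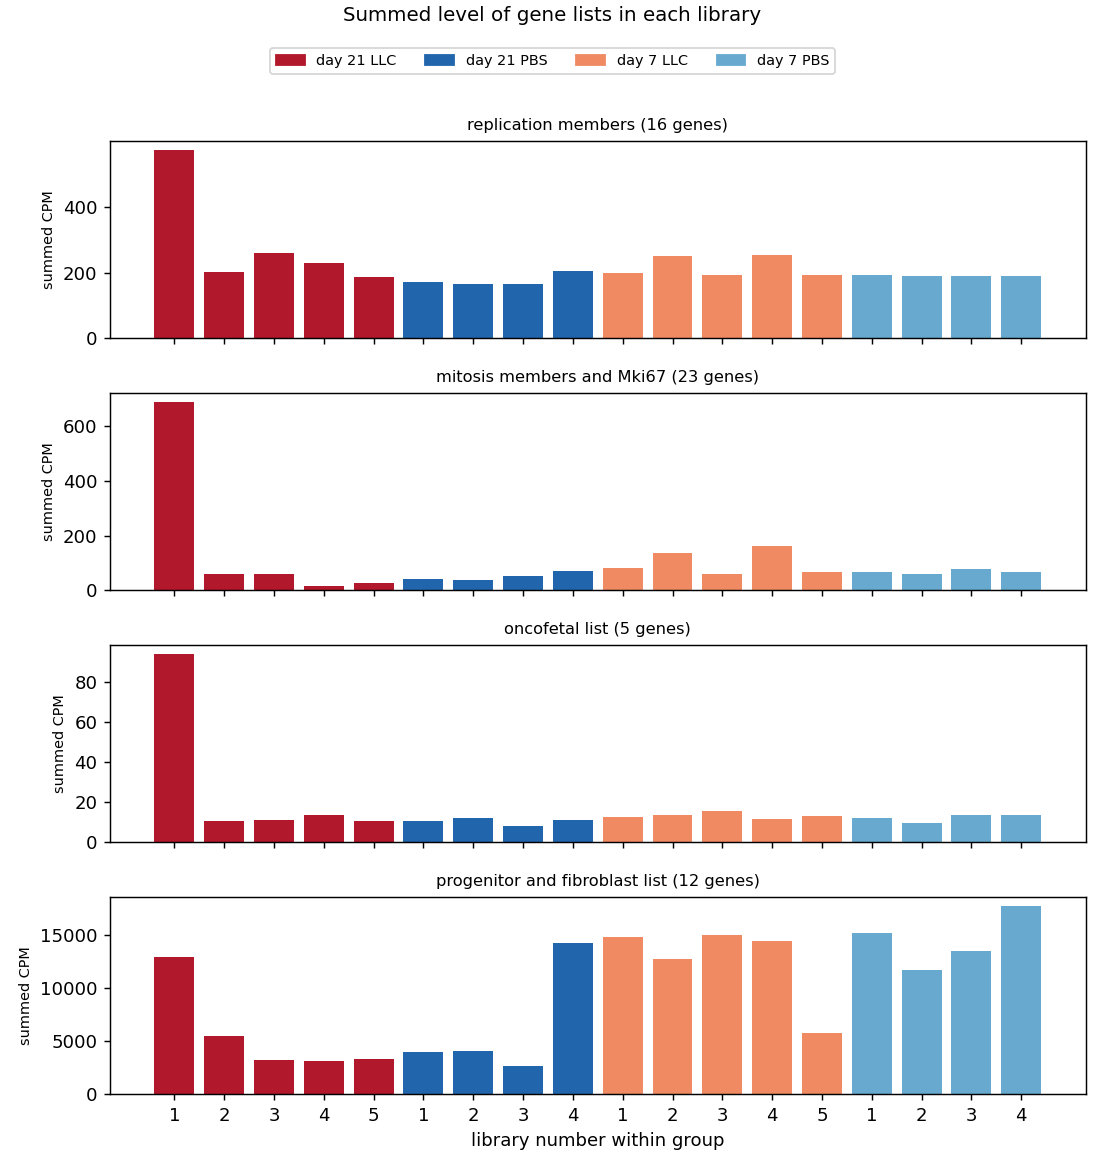
Summed CPM of the 16 replication genes, the 23 mitosis genes, 5 oncofetal genes and 12 progenitor and fibroblast genes in each library, with 1 bar a library coloured by group. The mitosis sum is 687 CPM in LLC library 1 of day 21 and at most 161 CPM elsewhere, and the oncofetal sum is 94.1 CPM in it and at most 15.7 CPM elsewhere.

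At day 21, LLC against PBS asks what happened to these genes in the fat of mice at the cachexia stage. None of the 39 genes passed edgeR's quasi-likelihood test at an adjusted p of 0.05, where 0.0885% of all genes did. At an unadjusted p under 0.05 there were 6 of the 39 and 23.3% of all genes. DESeq2 called 2 of them (11.5% of all genes), with 20 adjusted p missing, and edgeR with all 18 libraries in 1 fit called 6 (19% of all genes). The fitted values were above 0 for 37 of 39 genes, against 51.9% of all genes, with a median log2 fold change of 1.41 over the list and 0.0167 over all genes. Without library 1, edgeR again called 0 (0.179% of all genes), with 5 at an unadjusted p under 0.05 (22.4% of all genes), DESeq2 called 2 (9.9% of all genes) and the joint fit 3 (17.8% of all genes). The values were then above 0 for 13 and below 0 for 26 of the 39, with a median of -0.299, against 55.1% of all genes above 0. Since library 1 stands out in these very genes, leaving it out partly sets that direction.

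Mcm7 and Mcm4, which encode subunits of the MCM helicase, were the members whose LLC libraries all lay above PBS. Mcm7 had 36.8, 23.6, 30.3, 47.6 and 29.8 CPM in LLC libraries 1 to 5, against 19.5, 17.9, 18.1 and 19.6 CPM in PBS. The groups did not overlap, and library 1 was not the highest. Its log2 fold change was 0.82 ± 0.19 (SE), with an edgeR adjusted p of 0.0751, and without library 1 it was 0.82 ± 0.20 with an adjusted p of 0.0989. DESeq2 gave Mcm7 an adjusted p of 0.00339, the joint edgeR fit gave 0.00386, and edgeR without PBS library 4 gave 0.0462. Over all alternatives the adjusted p of Mcm7 ran from 0.00339 to 0.233. Mcm4, another subunit, had 44, 18.8, 27.8, 21.6 and 18.5 CPM in LLC, against 14.3, 14.6, 13.2 and 16.3 CPM in PBS. The lowest LLC library was above the highest PBS library. The log2 fold change of Mcm4 was 0.82 ± 0.26 (SE; p adjusted by edgeR = 0.118), and 0.59 ± 0.16 (adjusted p = 0.111) without library 1. DESeq2 gave Mcm4 an adjusted p of 0.0372. These were the 2 members whose groups did not overlap with all libraries, against 9.7% of all genes in either direction. Without library 1 Ccne1, the gene of cyclin E1, joined them with LLC below PBS, against 13% of all genes. In the authors' deposited table, Mcm7 was the 1 member with an FDR under 0.05 at day 21, at a log2 ratio of 0.88 and an FDR of 0.00248, where 5.29% of all genes passed.

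In fat of the same libraries, erythroid markers summed to 1270 to 4460 CPM in LLC and 355 to 862 CPM in PBS, and mast cell markers to 71.6 to 139 CPM in LLC and 17.9 to 35.9 CPM in PBS. Macrophage markers summed to 1090 to 3600 CPM in LLC, against 329 to 497 CPM in 3 PBS libraries and 2650 CPM in PBS library 4. Their part in the Mcm7 and Mcm4 values was not tested. Exons of Mcm7 overlap those of Ap4m1 on the opposite strand over 7.25% of their length, and no strand-marking step is named, so reads from the overlap cannot be assigned to either gene.

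In the helicase and licensing group as a whole, with all libraries, 8 of 9 genes had values above 0 with a median log2 fold change of 1.22, all but Gins2, and without library 1, 7 of 9 with a median of 0.56. Of LLC libraries 2 to 5, library 3 was the highest for Cdt1, Mcm2, Mcm3, Mcm4, Mcm5 and Mcm6, and it was also the library with B cell markers at 1670 CPM and a T and NK cell list at 114 CPM. In the latter list, the T cell genes Cd4, Cd2 and Lck had 32.6, 26.1 and 16.2 CPM there. Klrb1c, Ncr1, Gzmb and Nkg7 of the list were lower in library 3 than in LLC library 2. The part of B and T cells in the group's values was not tested. Without PBS library 4 and both LLC libraries 1 and 3, Mcm7 had a log2 fold change of 0.84 and Mcm4 of 0.47. Mcm6 had 72.9, 17.7, 22.2, 15.8 and 15.1 CPM in LLC, against 8.97, 8.88, 9.78 and 17.9 CPM in PBS. PBS library 4 reached into the LLC range. Gins2 encodes a subunit of the GINS complex, and 67.3% of its exonic bases overlap Gse1 on the opposite strand, so its value is uncertain. Pcna had 89.3, 40.7, 58.8, 63.2 and 47.9 CPM in LLC, against 40.5, 41.3, 49.7 and 48.9 CPM in PBS. The groups overlapped, and its log2 fold change was 0.39 ± 0.21 (SE), and 0.24 ± 0.16 without library 1. E2f1, the transcription factor that opens S phase, had 18.9, 5.56, 3.12, 2.98 and 3.4 CPM in LLC, against 4.82, 6.11, 3.52 and 9.65 CPM in PBS. Only library 1 lay above the PBS range, and the log2 fold change of 0.16 ± 0.60 became -0.66 ± 0.36 without it.

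The mitosis genes depended on library 1 for their direction. All 23 had values above 0 with it, with a median log2 fold change of 1.68, and 3 of 23 without it, with a median of -0.36. Mki67 had 111, 8.83, 9.82, 1.01 and 3.33 CPM in LLC libraries 1 to 5, against 7.41, 5.92, 9.65 and 11.4 CPM in PBS. Libraries 2 and 3 lay within the PBS range and libraries 4 and 5 below it. Its log2 fold change was 1.63 ± 1.14 (SE) with library 1 and -0.55 ± 0.60 without it, with edgeR adjusted p-values of 0.399 and 0.607. Top2a had 85, 6.08, 6.75, 1.52 and 2.07 CPM in LLC, against 3.43, 3.15, 4.63 and 6.39 CPM in PBS. As for Mki67, LLC libraries 4 and 5 were below every PBS library. Its log2 fold change was 2.19 ± 1.15 with library 1 and -0.07 ± 0.51 without it.

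Ccna2, which encodes cyclin A2, had 53.2, 2.28, 2.88, 1.08 and 1.27 CPM in LLC, against 1.45, 2.2, 2.48 and 5.65 CPM in PBS. Cdk1, the kinase of mitotic entry, had 23.4, 3.33, 1.69, 0.823 and 1.13 CPM in LLC, against 1.69, 1.57, 2.87 and 2.83 CPM in PBS. In both genes libraries 4 and 5 were again the lowest of the day. Their log2 fold changes were 2.03 ± 1.23 and 1.42 ± 0.97 with library 1, and -0.63 ± 0.51 and -0.33 ± 0.47 without it. Bub1b, the gene of the checkpoint kinase BUBR1, kept a value above 0, at 1.68 ± 0.82 with library 1 and 0.51 ± 0.50 without it, and LLC library 3, the one with high B cell markers, held 6.1 CPM of it, against 1.76 to 2.83 CPM in PBS. Without PBS library 4 and both LLC libraries 1 and 3, the value for Bub1b was 0.04. Tpx2, a spindle assembly factor, and Ube2c, the ubiquitin-conjugating enzyme of the anaphase-promoting complex, had log2 fold changes of 1.92 ± 1.17 and 1.33 ± 0.90, and of -0.41 ± 0.54 and -0.36 ± 0.33 without library 1. LLC libraries 4 and 5 were the 2 lowest of the 9 libraries of day 21 for 18 of the 39 genes, 15 of them mitosis genes, whereas this order was found for 5.34% of all genes. Bub1, the checkpoint kinase, was at 0 counts in LLC library 5, which allows up to 0.2 CPM, and at 18.7 CPM in library 1. Such floors cover counting error only.

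**Figure D3:**
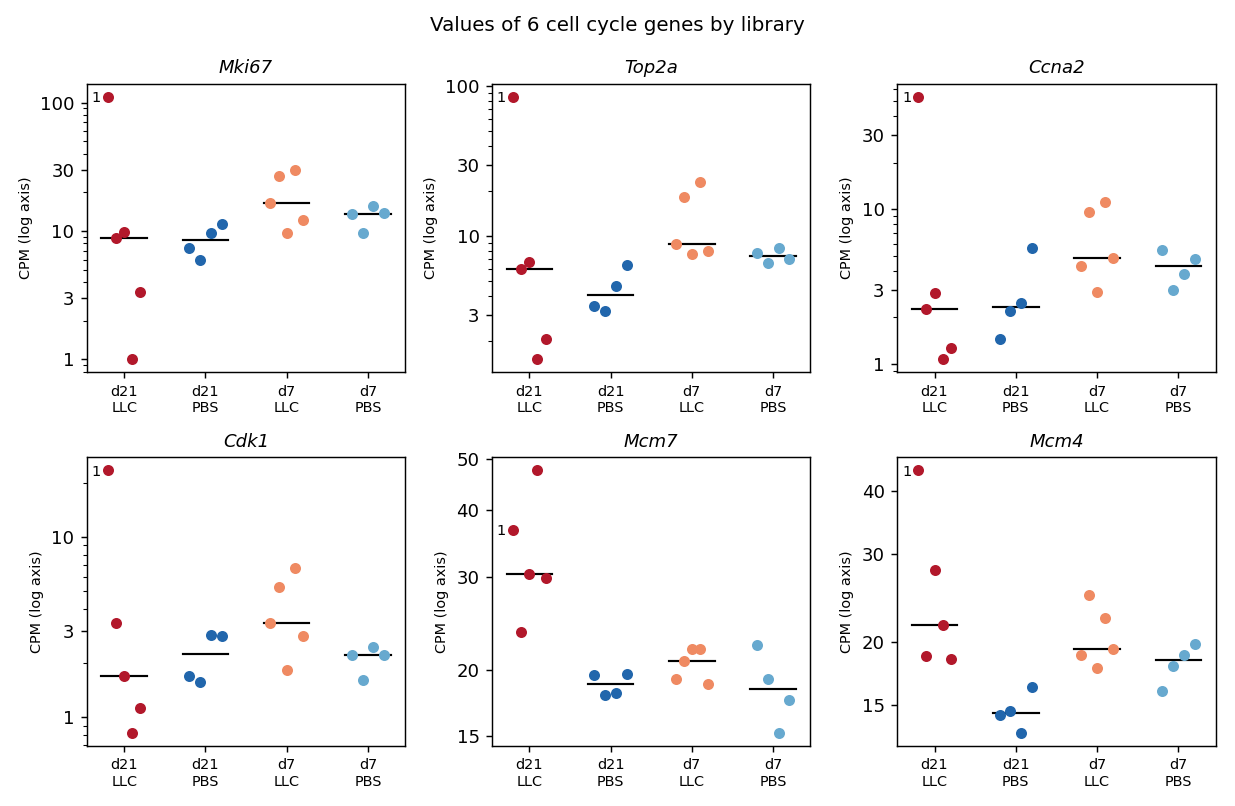
CPM on a log axis of Mki67, Top2a, Ccna2, Cdk1, Mcm7 and Mcm4 in each library, with 1 point a library, the group median as a line, and LLC library 1 of day 21 marked 1 (d21 and d7: day 21 and day 7). The first 4 genes have LLC libraries of day 21 both above and below all PBS libraries of that day, whereas for Mcm7 and Mcm4 every LLC library of day 21 is above every PBS library of day 21.

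**Figure D4:**
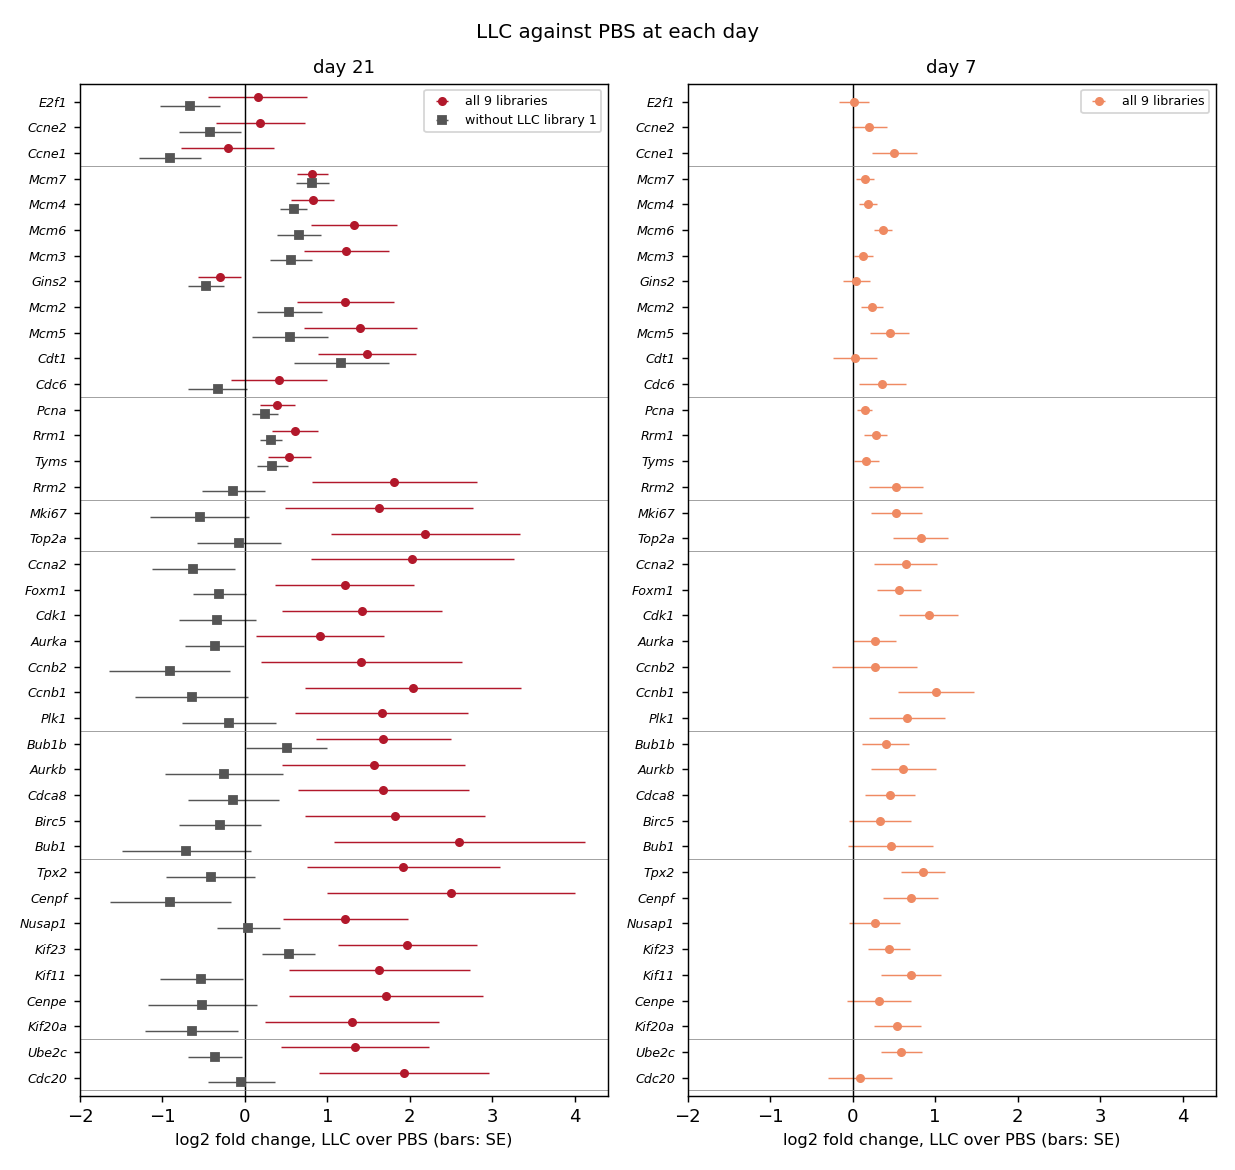
Log2 fold change (points) with SE (bars) of LLC over PBS for each gene, at day 21 with all libraries (red) and without LLC library 1 (grey), and at day 7 (orange). At day 21 the mitosis genes lie above 0 with library 1 and mostly below 0 without it, while Mcm7 is at 0.82 both ways and Mcm4 at 0.82 with library 1 and 0.59 without it, and at day 7 all 39 points lie above 0.

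At day 7, before the cachexia stage, none of the 39 genes passed edgeR's test, where 0.00744% of all genes did. At an unadjusted p under 0.05 there were 6 of the 39 and 8.51% of all genes. DESeq2 called 0 (0.692% of all genes), with 8 at an unadjusted p under 0.05 (8.98% of all genes). All 39 values were above 0, against 51.1% of all genes, with a median log2 fold change of 0.54 over the mitosis genes and 0.20 over the replication genes. Tpx2 had 3.83, 5.75, 2.86, 7.34 and 4.43 CPM in LLC, against 2.16, 2.81, 3.08 and 2.69 CPM in PBS. LLC library 3 lay within the PBS range and the other 4 above it, and the log2 fold change was 0.86 ± 0.27 (SE; p adjusted by edgeR = 0.432). Mcm6 had 17.2, 21.8, 17.9, 23.7 and 19.8 CPM in LLC, against 14.1, 15.8, 16.3 and 16.2 CPM in PBS. It was the 1 member whose groups did not overlap, against 2.52% of all genes, with a log2 fold change of 0.37 ± 0.11 (SE; p adjusted by edgeR = 0.408).

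The high values of day 7 stood mainly in 2 libraries. Top2a had 8.84, 18.2, 7.56, 22.9 and 7.94 CPM in LLC, against 7.73, 6.64, 8.32 and 7.02 CPM in PBS. Mki67 had 16.4, 26.6, 9.66, 29.8 and 12.2 CPM in LLC, against 13.5, 9.63, 15.8 and 13.8 CPM in PBS. LLC libraries 2 and 4 were high in both genes and the other 3 lay near PBS. Over the list, LLC libraries 2 and 4 were the 2 highest of the 9 libraries for 29 of 39 genes, 19 of mitosis and 10 of replication, an order found for 6.46% of all genes. Mitosis genes summed to 136.5 and 161.3 CPM in those libraries, against 58.5 to 82.6 CPM in the other LLC libraries and 61.3 to 76.9 CPM in PBS. Without both, an alternative chosen after their values were seen, 23 genes had values above 0 and 16 below, against 49.8% of all genes above 0, and edgeR called 0, with 0 at an unadjusted p under 0.05 (5.71% of all genes). Macrophage markers in LLC libraries 2 and 4 summed to 2420 and 2760 CPM, within the 1760 to 2890 CPM of PBS. In that list Adgre1 had 93.5 and 90.3 CPM, Cd68 114 and 110 CPM and Fcgr1 36.6 and 30.4 CPM in these libraries. The highest PBS values were 81.2, 89.4 and 17.1 CPM. No other member of the list was above every PBS library in both. Csf1r, Mrc1, C1qc, Cd163, Mertk and Lyz2 stayed below the highest PBS value in each. Neutrophil markers summed to 34.1 and 18.5 CPM in these libraries, against 3.95 to 8.48 CPM in PBS, and LLC library 5, which was not high in the mitosis genes, had 35.1 CPM. Mast cell markers summed to 88.8 and 103 CPM, the 2 highest sums of day 7, against 48.8 to 84 CPM in PBS. Oncofetal markers summed to 13.8 and 11.7 CPM there, within the 9.45 to 15.7 CPM of the other libraries of day 7. T and NK cell markers summed to 26.7 and 23.5 CPM in LLC libraries 2 and 4, against 13.2 to 16.8 CPM in PBS and 29.6 CPM in LLC library 5. B cell markers summed to 6.82 and 16.8 CPM, against 3.01 to 6.96 CPM in PBS. The part of these cell types in the cell cycle values was not tested.

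The difference of the LLC effect between days, tested as the day 21 effect minus the day 7 effect in 1 fit, passed edgeR's test for none of the 39 genes (0.415% of all genes). At an unadjusted p under 0.05 there were 3 (18.2% of all genes), and DESeq2 called 0 (5.2% of all genes), with 4 at an unadjusted p under 0.05. Mcm7 had the smallest p, with a difference of 0.69 ± 0.22 (SE) on the log2 scale and an edgeR adjusted p of 0.123, and of 0.63 ± 0.23 with an adjusted p of 0.15 without library 1. Without LLC library 2 of day 21 the difference for Mcm7 was 0.79 and passed, at an edgeR adjusted p of 0.0447. Mcm4 followed at 0.66 ± 0.29 (edgeR adjusted p = 0.241), and 0.36 ± 0.19 without library 1. With all libraries the difference was above 0 for 37 of the 39 genes, against 55.1% of all genes. Without library 1 it was below 0 for 28 and above 0 for 11 of them, against 50.8% of all genes above 0. None was then called by edgeR (1.2% of all genes), and 6 had an unadjusted p under 0.05 (19.7% of all genes). For Mki67 it was 1.13 ± 1.22 with library 1 and -1.12 ± 0.69 without it, and for Cdk1 0.53 ± 1.07 and -1.30 ± 0.60.

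Within LLC mice, day 21 against day 7 asks how the same genes stood at the later stage of tumour growth. Day and any handling that differed between days cannot be told apart. With all libraries, 1 of the 39 genes passed edgeR's test, where 1.77% of all genes did, and that gene was Mcm7. At an unadjusted p under 0.05 there were 2 (18.6% of all genes), and DESeq2 called 1 (5.81% of all genes). Values were above 0 for 36 of the 39 genes, against 57.8% of all genes. It had 36.8, 23.6, 30.3, 47.6 and 29.8 CPM at day 21, against 19.2, 20.8, 21.9, 21.9 and 18.8 CPM at day 7. All 5 later libraries were above all 5 earlier ones, the only member of which this held, against 3.33% of all genes in either direction. Mcm7 rose by 0.71 ± 0.15 (SE) on the log2 scale with an edgeR adjusted p of 0.0315. The call was lost without LLC library 4 of day 21, without any 1 of the LLC libraries of day 7, with limma on log2(TPM + 1) or log2(TPM + 0.1), at an adjusted p of 0.137 and 0.156, and with the replicate block, at 0.26. Over all alternatives its log2 fold change ran from 0.55 to 0.82 and its adjusted p from 0.00111 to 0.26. Within PBS mice, Mcm7 had 19.5, 17.9, 18.1 and 19.6 CPM at day 21, against 22.3, 19.2, 15.2 and 17.5 CPM at day 7, a log2 fold change of 0.02 ± 0.17. In the fit without LLC library 1 of day 21, that fold change was 0.04 ± 0.17.

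The mitosis genes within LLC mice turned direction with library 1. With it, all 23 had values above 0, with a median log2 fold change of 0.86 and none called, and of the named genes Ccna2, Mki67, Tpx2, Top2a, Cdk1 and Ube2c had values below 0 with limma on log2(TPM + 1). Without it, all 23 had values below 0, with a median of -1.21, and 9 fell. With the replication genes E2f1 (lower) and Mcm7 (higher), 11 of the 39 genes then passed edgeR's test, where 7.44% of all genes did (3.76% lower), and DESeq2 called 12 (12% of all genes). Values were above 0 for 7 of the 39 genes, against 53.9% of all genes. Since library 1 was left out for its values in these genes, this direction is partly set by that choice.

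Top2a had 6.08, 6.75, 1.52 and 2.07 CPM in LLC libraries 2 to 5 of day 21, against 8.84, 18.2, 7.56, 22.9 and 7.94 CPM at day 7. Ccna2 had 2.28, 2.88, 1.08 and 1.27 CPM in those libraries of day 21, against 4.27, 9.61, 2.92, 11.2 and 4.85 CPM at day 7. In both genes every one of these 4 libraries was below every LLC library of day 7. Without library 1, Top2a fell by 1.67 ± 0.44 (SE; p adjusted by edgeR = 0.0329) and Ccna2 fell by 1.81 ± 0.47 (edgeR adjusted p = 0.031) on the log2 scale. Ube2c fell by 1.27 ± 0.28 (edgeR adjusted p = 0.0166), Mki67 fell by 1.72 ± 0.49 (adjusted p = 0.0434), and Tpx2 fell by 1.53 ± 0.42 (adjusted p = 0.0367). The other genes that fell lie outside the rule for named genes and were named after their values were seen. They are Foxm1, the transcription factor of the mitotic genes, the spindle motors Kif11 and Kif23, and Cenpf, whose log2 fold changes ran from -2.08 to -1.01. Cdk1 had a value of -1.21 ± 0.42 and did not pass, at an adjusted p of 0.0881. For 7 mitosis genes the 4 libraries lay wholly below the day 7 libraries, where 4.25% of all genes did so. E2f1 fell by 1.07 ± 0.28 on the log2 scale (edgeR adjusted p = 0.0324), with 5.56, 3.12, 2.98 and 3.4 CPM in libraries 2 to 5 of day 21, against 8.78, 8.75, 7.34, 9.48 and 4.78 CPM at day 7. LLC library 5 of day 7 lay within the later range.

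Over the same libraries, progenitor and fibroblast markers summed to 3090 to 5490 CPM in LLC libraries 2 to 5 of day 21, against 5720 to 15000 CPM in LLC of day 7. In that list Col1a1 had 80.1 to 949 against 1190 to 3640 CPM, and Col3a1 174 to 1870 against 2510 to 7830 CPM. Pdgfrb, Smoc2, Col15a1 and Lum were also lower at day 21 without overlap. Pdgfra, Dpp4, Pi16, Ly6a, Cd34 and Dcn overlapped between the days, with Dcn at 1180 to 1620 against 856 to 1610 CPM. Macrophage markers summed to 1090 to 2080 CPM in LLC libraries 2 to 5 of day 21, against 1380 to 2760 CPM at day 7. The part of these cell types in the fall of the mitosis genes was not tested. Replication genes other than E2f1 and Mcm7 did not pass, and in the clamp and nucleotide group Pcna lay at 0.05 ± 0.12 on the log2 scale without library 1, whereas Rrm2, a ribonucleotide reductase subunit, lay at -0.92 ± 0.36 (p adjusted by edgeR = 0.122). Exons of Ube2c overlap Tnnc2 on the opposite strand over 22.8% of their length, and those of Ccna2 overlap Exosc9 over 12.5%. With no strand-marking step named, reads in those stretches may come from either gene, and their share was not examined.

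**Figure D5:**
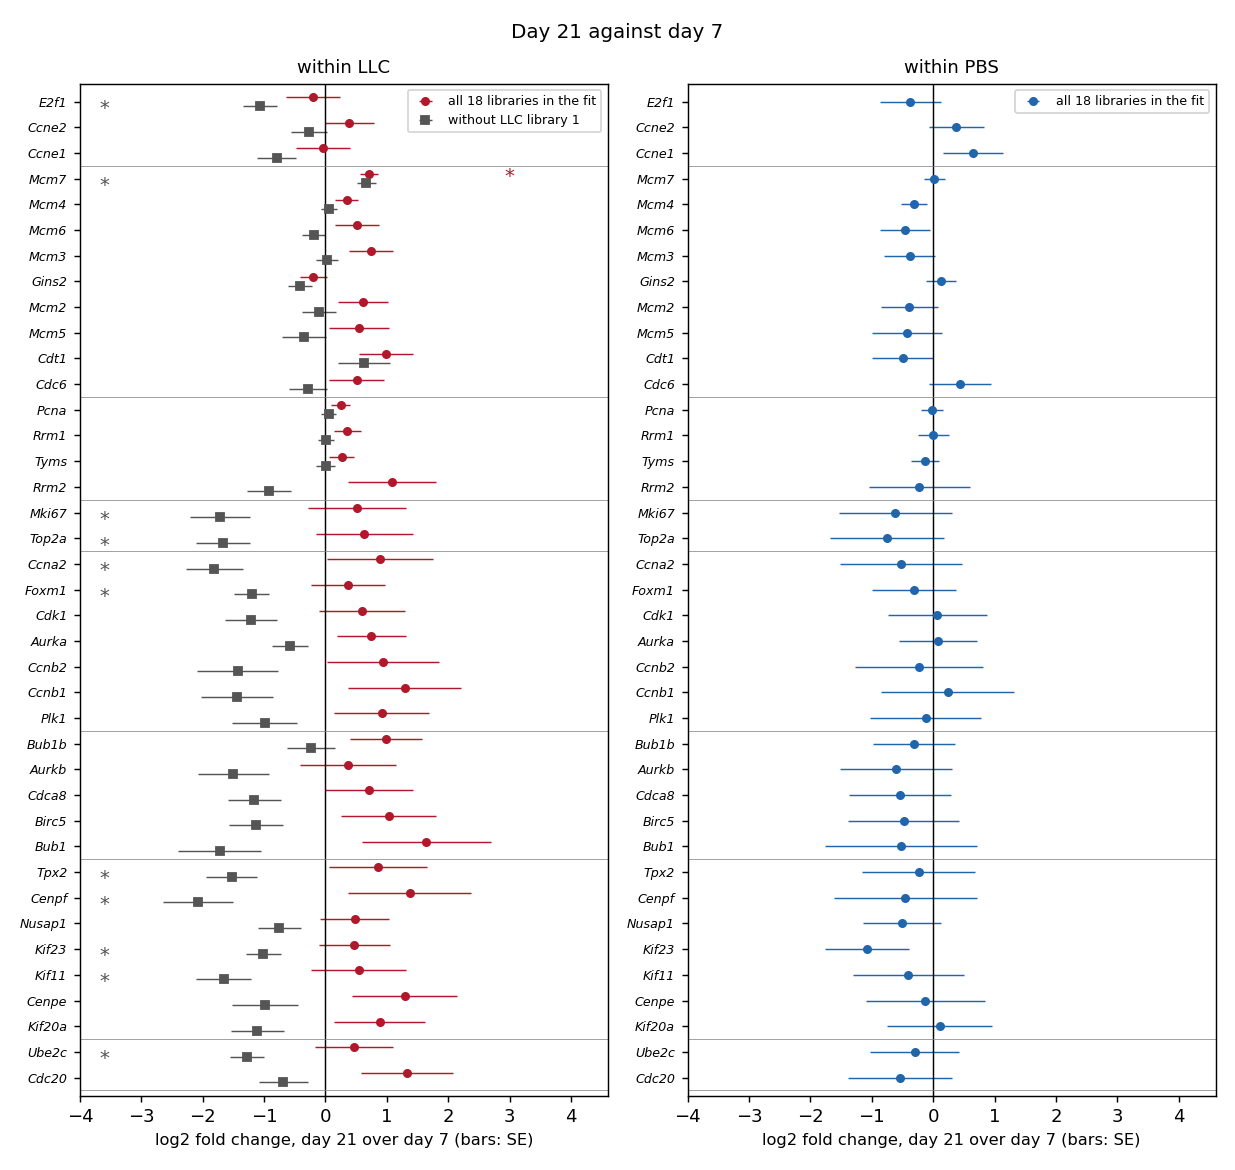
Log2 fold change (points) with SE (bars) of day 21 over day 7 for each gene within LLC (left, red with all 18 libraries in the fit, grey without LLC library 1 of day 21) and within PBS (right), where asterisks mark an edgeR adjusted p under 0.05. Mcm7 is marked with and without library 1, and 10 genes below 0 are marked without it.

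Within PBS mice, day 21 against day 7 shows how the genes stood without a tumour. None of the 39 passed edgeR's test, where 3.21% of all genes did, with 0 at an unadjusted p under 0.05 (20.4% of all genes), and DESeq2 called 0 (7.94% of all genes) with 0 at an unadjusted p under 0.05. These counts rest on a spread that LLC library 1 of day 21 widened in these genes. The SE of Top2a was 0.92 with that library and 0.45 without it. Without it, edgeR's unadjusted p was 0.00257 for Kif23, 0.0443 for Mcm6 and 0.0467 for Mcm4. With all libraries, the values were below 0 for 29 of the 39 genes, with a median log2 fold change of -0.31, against 50.9% of all genes above 0. Progenitor and fibroblast markers summed to 2640 to 4040 CPM in PBS libraries 1 to 3 of day 21 and 14200 CPM in library 4, against 11700 to 17700 CPM at day 7. Macrophage markers summed to 329 to 497 CPM in those 3 libraries and 2650 CPM in library 4, against 1760 to 2890 CPM at day 7, and mast cell markers to 17.9 to 35.9 CPM, against 48.8 to 84 CPM. Their part in the values was not tested. Kif23, a motor of the dividing cell's midzone, had 1.08, 1.83, 1.7 and 1.72 CPM at day 21, against 3.67, 2.81, 3.63 and 3.27 CPM at day 7. The groups did not overlap, as for Top2a among the members and for 16.3% of all genes in either direction. The log2 fold change of Kif23 was -1.08 ± 0.68 (SE; p adjusted by edgeR = 0.384). Without LLC library 1 of day 21, which enters this comparison through the shared estimate of the spread, it was -1.06 ± 0.30 with an edgeR adjusted p of 0.0483, the only member called (5.67% of all genes). Mcm4 had 14.3, 14.6, 13.2 and 16.3 CPM at day 21, against 16, 17.9, 18.9 and 19.8 CPM at day 7, a log2 fold change of -0.31 ± 0.22 (edgeR adjusted p = 0.431). In the fit without LLC library 1, that fold change was -0.295 ± 0.137 (edgeR adjusted p = 0.2). The day 21 comparison of LLC with PBS and the comparison within PBS share the PBS libraries of day 21, which are the lowest group for Mcm4.

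Other genes of the pathway were taken from lists outside the 39. At day 21 none of the tested genes of 5 lists passed edgeR's test in LLC against PBS, with or without library 1, and the same held at day 7. Other mitosis genes had values above 0 for 38 of 38 at day 21, with a median log2 fold change of 1.33, and for 15 of 36 tested without library 1. At day 7 they were above 0 for 38 of 40, with a median of 0.49. Other replication genes were above 0 for 19 of 21 at day 21, 13 of 21 without library 1, and 18 of 21 at day 7. Of all genes, 51.9% were above 0 at day 21, 55.1% without library 1 and 51.1% at day 7. Among CDK inhibitors, 3 of 6 tested were above 0 at day 21, and the 2 with the smallest p are given as examples. Cdkn2c, the inhibitor p18 of the kinases that pair with cyclin D, had 81.8, 108, 71.5, 96.6 and 63 CPM in LLC, against 150, 141, 195 and 125 CPM in PBS. The groups did not overlap, as for 9.7% of all genes in either direction. The log2 fold change of Cdkn2c was -0.88 ± 0.19 (SE) with an edgeR adjusted p of 0.064. Without library 1 it was -0.83 ± 0.21 with an edgeR adjusted p of 0.102. Cdkn1a, the inhibitor p21, had 49.9, 94.9, 83, 136 and 60 CPM in LLC, against 40.9, 35.6, 15.8 and 82 CPM in PBS, with a log2 fold change of 0.94 ± 0.45 (edgeR adjusted p = 0.234).

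Within LLC mice and without library 1, 3 of 40 other mitosis genes fell at day 21 against day 7, where 7.44% of all genes passed (3.76% lower). They were Ttk, the checkpoint kinase MPS1, at -2.33 ± 0.57 (SE; p adjusted by edgeR = 0.0258), and the spindle proteins Ckap2l and Ckap2 at -1.91 ± 0.49 and -2.06 ± 0.57 (adjusted p = 0.0309 and 0.0396). Ccnd1, which encodes the G1 cyclin D1, fell by 1.25 ± 0.36 on the log2 scale (edgeR adjusted p = 0.0444). With library 1 none of these lists held a called gene.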

How the data were processed

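Poly(A) RNA was sequenced in 18 libraries. The submitters' processing notes name fastp 0.23.0, RSEM and 2 names of 1 mouse build, mm10 and GRCm38. The sources used here give no aligner, annotation or test for the authors' comparisons. The authors deposited 1 table per day with RSEM expected counts rounded to whole numbers (100% of values), and TPM values. The deposited log2 ratio and the deposited p-value and FDR were used only where named. Counts were scaled by TMM, filtered with filterByExpr and tested with edgeR 4.0.16 (glmQLFit and glmQLFTest, two-sided, Benjamini-Hochberg over all genes tested, threshold 0.05) in R 4.3.3. LLC against PBS was fitted within each day's 9 libraries; other comparisons used 1 fit of 18 libraries. DESeq2 1.42.0, limma 3.58.1 on log2(TPM + 1) or log2(TPM + 0.1), other size factors, no filter, a replicate block, a joint fit and leaving out libraries were alternatives. The scripts were tested on simulated data. Genes named in each comparison were the highest of each of 8 role groups by mean CPM, Mki67, Top2a and Cdk1, and the members called (up to 10) or else the 2 with the smallest p. The members and lists were chosen with earlier results of these data known. Same-numbered LLC and PBS libraries correlated at -0.27 to 0.264 at day 21 and at 0.0972 to 0.507 at day 7. Same-numbered PBS libraries of the 2 days correlated at -0.364 to 0.557. The labels name no pairs, so numbers were not taken as pairs in the main fits. Gene positions and exon overlaps are from GENCODE on GRCm38.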

Additional observations from a re-analysis of the deposited data

Results flagged for a closer look

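Within groups of 4 or 5 libraries, a gene was singled out where the gap between an extreme library and its nearest neighbour, as a share of the group's range, was above Dixon's 95% critical value. Of 60 groups examined, 14 were singled out. Chance gives about 1 in 20 for a single group of normally distributed values. The groups share libraries, and the sums share genes with the single genes, so the 60 are not independent and the count cannot be set against that rate. LLC library 1 of day 21 was the extreme library in 12 of them. The gap took a share of 0.932 for Ube2c, 0.838 for E2f1, 0.965 for Ccna2, 0.779 for Bub1b, 0.92 for Mki67, 0.939 for Tpx2, 0.937 for Top2a, 0.889 for Cdk1, 0.876 for Mcm6 and 0.92 for Kif23. It took 0.812 for the summed replication genes and 0.935 for the summed mitosis genes. PBS library 4 of day 21 was the extreme library in the other 2, at 0.9 for Mcm6 and 0.866 for the summed replication genes.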

How the results depend on the processing

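The count of members called by edgeR was 0 for LLC against PBS at day 21, where it was 2 with DESeq2, 6 in 1 fit of 18 libraries, and 1 once PBS library 4 was dropped along with LLC libraries 1 and 3. Without LLC library 1 it was 3 in the joint fit and 2 with DESeq2. At day 7 it was 0 in every alternative run. For the difference between days it was 0, and 1 without those 3 libraries or with DESeq2 without LLC library 1. Within LLC it was 1, and 0 with limma at both pseudocounts and with the replicate block, 12 without those 3 libraries and 12 with DESeq2 without LLC library 1. Within PBS it was 0, 2 with the replicate block and 5 without those 3 libraries. Leaving out 1 library gave 0 to 1 calls at day 21, 0 to 1 for the difference, 0 to 11 within LLC and 0 to 1 within PBS. The 11 came without LLC library 1 of day 21, and the 1 at day 21 without PBS library 4. Same-numbered libraries correlated at -0.27 to 0.264 at day 21 and 0.0972 to 0.507 at day 7, where 3 of 4 correlated best with their own number, a hint from the data and not the design. The signs below are of log2 fold changes, most of them not called. With limma on log2(TPM + 1), the sign turned in LLC against PBS at day 7 E2f1 (-0.0284), and in the difference between days Ube2c (-0.0188) and Cdk1 (-0.0953), and in day 21 against day 7 within LLC Ube2c (-0.43), Ccna2 (-0.34), Mki67 (-0.41), Tpx2 (-0.20), Top2a (-0.42) and Cdk1 (-0.28), and in day 21 against day 7 within PBS Mcm7 (-0.18) and Cdk1 (-0.19). With limma on log2(TPM + 0.1), the sign turned in LLC against PBS at day 21 E2f1 (-0.0152), and in LLC against PBS at day 7 E2f1 (-0.0404), and in the difference between days Ube2c (-0.10), Mki67 (-0.12), Tpx2 (-0.25) and Cdk1 (-0.27), and in day 21 against day 7 within LLC the members' median (-0.25), Ube2c (-0.59), Ccna2 (-0.74), Mki67 (-0.98), Tpx2 (-0.72), Top2a (-0.83) and Cdk1 (-0.53), and in day 21 against day 7 within PBS Mcm7 (-0.19) and Cdk1 (-0.26). With the replicate block, the sign turned in LLC against PBS at day 21 E2f1 (-0.0167), and in the difference between days Ube2c (-0.16), E2f1 (-0.15), Ccna2 (-0.035), Mki67 (-0.16), Tpx2 (-0.12) and Cdk1 (-0.35), and in day 21 against day 7 within LLC the members' median (-0.33), Ube2c (-0.60), Ccna2 (-0.96), Mki67 (-1.04), Tpx2 (-0.89), Top2a (-0.97) and Cdk1 (-0.49). Without PBS library 4 and LLC libraries 1 and 3 of day 21, the sign turned in LLC against PBS at day 21 the members' median (-0.21), Ube2c (-0.37), E2f1 (-0.28), Ccna2 (-0.40), Mki67 (-0.79), Tpx2 (-0.56), Top2a (-0.21) and Cdk1 (-0.20), and in the difference between days the members' median (-0.63), Ube2c (-0.95), E2f1 (-0.29), Ccna2 (-1.03), Bub1b (-0.35), Mki67 (-1.32), Tpx2 (-1.41), Top2a (-1.03) and Cdk1 (-1.12), and in day 21 against day 7 within LLC the members' median (-1), Ube2c (-1.32), Ccna2 (-2.08), Bub1b (-0.79), Mki67 (-2.09), Tpx2 (-1.80), Top2a (-2) and Cdk1 (-1.17), and in day 21 against day 7 within PBS Cdk1 (-0.05). Without LLC libraries 2 and 4 of day 7, the sign turned in LLC against PBS at day 7 E2f1 (-0.15), Ccna2 (-0.0822), Bub1b (-0.11) and Mki67 (-0.0463). With 1 library left out at a time, the lowest and highest log2 fold changes are given. In LLC against PBS at day 21, values crossing 0 ran, for the members' median -0.30 to 1.70, Ube2c -0.36 to 1.60, E2f1 -0.66 to 0.48, Ccna2 -0.63 to 2.56, Mki67 -0.55 to 1.94, Tpx2 -0.41 to 2.23, Top2a -0.0717 to 2.49 and for Cdk1 -0.33 to 1.71. In LLC against PBS at day 7, values crossing 0 ran, for E2f1 -0.0635 to 0.14. In the difference between days, values crossing 0 ran, for the members' median -0.71 to 1.25, Ube2c -0.99 to 1.03, E2f1 -0.71 to 0.49, Ccna2 -1.30 to 1.94, Mki67 -1.12 to 1.44, Tpx2 -1.31 to 1.39, Top2a -0.94 to 1.69 and for Cdk1 -1.30 to 0.81. In day 21 against day 7 within LLC, values crossing 0 ran, for the members' median -0.98 to 0.84, Ube2c -1.27 to 0.73, Ccna2 -1.81 to 1.18, Bub1b -0.23 to 1.26, Mki67 -1.72 to 0.82, Tpx2 -1.53 to 1.16, Top2a -1.67 to 0.94 and for Cdk1 -1.21 to 0.88. In day 21 against day 7 within PBS, values crossing 0 ran, for Mcm7 -0.0632 to 0.12, Pcna -0.069 to 0.0259 and for Cdk1 -0.0679 to 0.21. The turns without LLC library 1 follow from its values, and the cause of the others was not tested. Alternatives without LLC libraries 2 and 4 of day 7, and those joining DESeq2 or the joint fit with the loss of LLC library 1, were chosen after seeing the data. Mitosis genes at about 1 to 10 CPM give few counts a library, which limits how small a difference can be called.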
